A study of Ovis aries with 18 samples.

Results

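The microRNAs miR-10a and miR-10b were followed in extracellular vesicles collected from the uterine lumen of sheep (Ovis aries). They were taken by name, as the rows oar-miR-10a and oar-miR-10b, and are 2 of the 768 miRNA rows that appear in the deposited vesicle table (495 rows), the endometrium table (761 rows) or both (488 rows). No other row of either table is listed with the seed of miR-10a or miR-10b. All ewes were ovariectomized and were injected each day for 14 days with progesterone (P4), at 50 mg a day. The P4 group was given nothing else, and the P4+RU486 group was also given 50 mg a day of RU486 (mifepristone, a progesterone receptor antagonist) from day 8 to day 14, with 5 ewes per group. Small RNA was sequenced from the vesicles of 4 ewes per treatment and from the endometrium of 5. The vesicles came from a 10 ml flush of the uterus that passed a 0.22 µm filter and was then concentrated and separated by size. RU486 reaches the whole animal and also binds the glucocorticoid receptor, and without ovaries the injected hormone is the main progestogen, so neither group models an intact cycle. The age of the ewes was not used here.

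miRNAs are short RNAs that pair with messenger RNAs through a seed near their 5′ end and lower the output of those messages. miR-10a and miR-10b share their seed and differ by a single base near the middle, so largely the same messages carry sites for both. Their genes lie inside HOX clusters, the arrays of homeobox genes that set position along the body axis and stay active in the adult female tract. In the RefSeq gene table of the assembly ARS-UI_Ramb_v3.0, used only to see which genes neighbour each other, MIR10A lies within the span of HOXB3 next to HOXB4, and MIR10B lies within the span of HOXD4, between HOXD3 and HOXD8. Reads that do not cover the differing base cannot be told apart, and the way in which the authors' counting shared such reads is not known here.

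The vesicle columns are named by treatment initial and number, P01 to P04 for P4 and R01 to R04 for P4+RU486, without the ewe. Reads in listed rows numbered 97202 to 1062646 per library. P01 and P03 stood apart. By name or seed, rows were matched to 3 of the 4 listed leukocyte miRNAs. In P01 these rows summed to 13883 normalized CPM (reads scaled to a common depth, adjusted by the TMM method), against 1645 to 4505 in the other libraries. Nearly all of that P01 sum was miR-150, at 13655. The row counted for miR-142, 11_5329, is listed with the seed of mouse miR-142b, so it may not be the leukocyte miR-142. That row and the one with the miR-155 seed were at 47.1 and 181 in P01, within the range of the other libraries. The epithelial list had rows for 3 of its 6 miRNAs (miR-200a, miR-200b and miR-200c), which summed to 30229 in P03, the library with the most miR-10a, and to 7118 in P01, the one with the least, against 10482 to 15999 in the other 6. In P03 only the rows named miR-200b (11590) and miR-200c (11166) were at their highest. The other rows of the list were highest in R02, and each row was lowest in P01. R01, with the next most miR-10a, had a sum of 14413.5. The part of the epithelial rows in the level of miR-10a was not tested. The multiciliated list had rows for 2 of 3, which summed to 10637 to 14908 in P4 and 11174 to 19140 in P4+RU486. Vesicles have no marker miRNA of their own that could check the label. The endometrium columns of single libraries have names that match neither an ewe nor a treatment and were not used, so levels, shares and ratios are given for vesicles only and no comparison of vesicles with tissue was made.

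miR-10a was the most abundant row in every vesicle library, and miR-10b, with the same seed, was far below it. In the P4 libraries miR-10a held 16.9%, 23.9%, 34.5% and 26.0% of the listed reads (P01 to P04), and in the P4+RU486 libraries 33.8%, 25.4%, 29.3% and 27.1% (R01 to R04). P01 was the lowest and P03 the highest, and the P4+RU486 shares lay within the range of P4. The median over the 8 libraries was 26.5%.

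miR-10b held 2.13%, 0.200%, 0.166% and 1.03% of the listed reads in P01 to P04. In R01 to R04 it held 0.431%, 0.321%, 1.08% and 0.661%. Its highest share, in P01, was 12.8 times its lowest, in P03, where for miR-10a the highest was 2.04 times the lowest. The median share of miR-10b was 0.546%, and P4+RU486 again lay within the range of P4. Counting error was small beside this spread: the widest 95% Wilson interval of a miR-10b share reached 7.56% of that share to either side, at 669 reads, and the widest for miR-10a reached 1.39%.

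**Figure D1:**
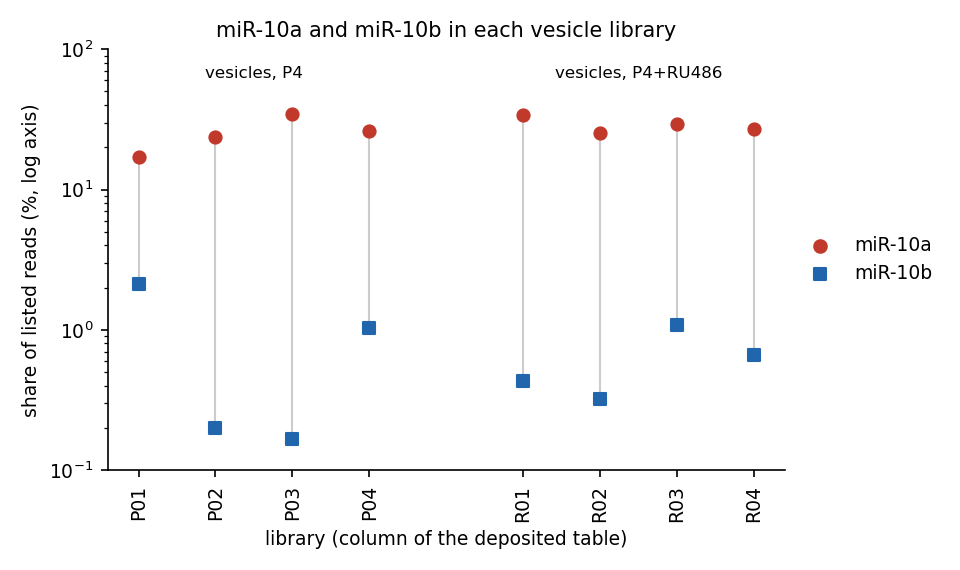
Share of listed reads (percent, log axis) held by miR-10a (circles) and miR-10b (squares) in each of the 8 vesicle libraries, with a line joining both values of a library. miR-10a lies between 16.9% and 34.5%, and miR-10b, between 0.166% and 2.13%, lies below it in every library and spreads more.

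The summed share of both was led by miR-10a. It ran from 19.1% in P01 to 34.6% in P03, with a median of 27.4%. P01 had the least miR-10a and the most miR-10b, and P03 the most miR-10a and the least miR-10b.

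In the ratio of both rows within a library, the scaling factor and the library total cancel out. Even so, the log2 ratio was higher in libraries with more reads (Spearman rho 0.98, given below). miR-10a was 7.95, 119, 208 and 25.1 times as abundant as miR-10b in P01 to P04, and 78.4, 79.2, 27.1 and 40.9 times as abundant in R01 to R04. The highest ratio, in P03, was 26.2 times the lowest, in P01, and the 4 ratios of P4+RU486 lay inside that range. The median log2 ratio over the 8 libraries was 5.82.

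**Figure D2:**
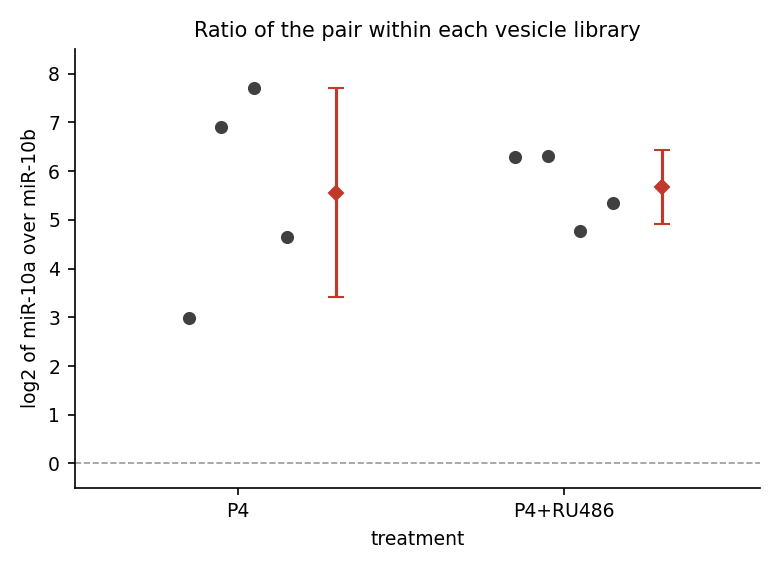
Log2 of miR-10a over miR-10b in each vesicle library (dots), with the mean and SD of the 4 libraries of each treatment (diamonds and bars) and equality as a dashed line. The libraries lie between 2.99 and 7.70, and those of P4+RU486 lie within the range of P4.

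In the order of vesicle levels (normalized CPM), miR-10a was followed by let-7f at 35308 to 136308 and let-7a at 50291 to 95915, members of the let-7 family that holds back growth genes in differentiated cells. Then came miR-26a at 42857 to 96681, and the rows 10_3805 and X_35741, which carry the seed of miR-92a and hold the same values, at 45290 to 76358. Each of the 9 rows after miR-10a lay below it in all 8 libraries, so its first place held in each of them. Mature miRNAs are of nearly equal length, so levels of different rows were compared without a length correction.

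miR-10b was in the 26th place by median, at 5765, and its rank ran from 11 in P01 to 52 in P03. The next row above was let-7c, with a median of 5803, and the next below was 5_29575, with the miR-378 seed and a median of 5708. miR-10b lay above let-7c in 5 of 8 libraries and above 5_29575 in 4 of 8, so it did not differ from these neighbours beyond its spread. Those neighbours were steadier: the highest library was 1.96 times the lowest for let-7c and 1.77 times for 5_29575, while for miR-10b the levels ran from 1936 to 16271.

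miR-10b was one of the more variable of the abundant vesicle rows. Of the 64 rows that averaged 1000 or more and had a read in every library, it had the 5th largest SD of the log2 level over the 8 libraries, 1.12, against a median SD of 0.40. For miR-10a the SD was 0.49, the 25th largest. The row with the largest SD was 26_23579, with the seed of miR-486, an erythroid miRNA, and miR-200c, an epithelial miRNA, had an SD of 1.13.

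Between the treatments, neither miRNA differed by more than the spread between libraries. This comparison asked whether blocking the progesterone receptor in the second week changed miR-10a or miR-10b in vesicles. miR-10a was at 129299, 255559, 402651 and 241712 normalized CPM in P01 to P04, with a mean of 257305 ± 112186 (SD, n = 4). It was at 356366, 261224, 288073 and 285761 in R01 to R04, with a mean of 297856 ± 40855 (SD, n = 4). The P4+RU486 libraries all lay within the P4 range. The log2 difference, P4+RU486 minus P4 on the log2(value + 1) scale, was 0.31 (SE 0.28, 95% interval -0.31 to 0.93, limma adjusted p = 0.704). Without P01 the difference was 0.02 and without P03 it was 0.57, and neither passed the threshold of 0.05 (limma adjusted p = 0.975 and 0.319).

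miR-10b was at 16271, 2145, 1936 and 9636 normalized CPM in P01 to P04, with a mean of 7497 ± 6859 (SD, n = 4). In R01 to R04 it was at 4546, 3300, 10625 and 6985, with a mean of 6364 ± 3227 (SD, n = 4). P4 held both the highest and the lowest libraries. The log2 difference was 0.19 (SE 0.63, 95% interval -1.19 to 1.57, limma adjusted p = 0.913), although the P4 mean was the higher one on the linear scale, so no direction was settled. Its interval is wide enough to hold a doubling in P4+RU486 as well as a fall to under 0.5 of P4. With log2 of the listed reads as a covariate the SE for miR-10b was 0.33, and the difference was -0.17 (limma adjusted p = 0.831). Without the libraries with the fewest reads (P01, P04 and R04), a choice made after seeing the data, it was 1.41 (SE 0.48, limma adjusted p = 0.275).

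Neither member was among the rows past a limma adjusted p of 0.05, which made up 0.437% of the 229 rows tested (1 row, miR-99a). The libraries of both treatments overlapped for miR-10a and for miR-10b, where 10.0% of the 229 rows had no overlap. Shares and the ratio also showed no difference beyond the spread. The miR-10a share had a mean of 25.3% ± 7.23 (SD, n = 4) under P4 alone, and with RU486 the mean was 28.9% ± 3.64 (SD, n = 4, 2-sided exact permutation p = 0.4). The miR-10b share had a mean of 0.883% ± 0.924 (SD, n = 4) under P4 alone, and with RU486 the mean was 0.624% ± 0.337 (SD, n = 4, 2-sided exact permutation p = 0.743). The log2 ratio of miR-10a to miR-10b was 5.56 ± 2.14 (SD, n = 4) under P4 alone, and with RU486 it was 5.68 ± 0.757 (SD, n = 4, 2-sided exact permutation p = 0.886). With 4 libraries against 4 the smallest p this test can give is 0.0286.

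The remaining miRNAs of the HOX clusters are miR-196, of HOXA, HOXB and HOXC, and miR-615, of HOXC. Rows were found for miR-196a and miR-615 by seed and none matched miR-196b. The row 3_26587, with the miR-196a seed, was at 86.4, 58.0, 111 and 105 normalized CPM in P01 to P04 and at 47.4, 87.7, 177 and 240 in R01 to R04, with a median share of 0.0104%. R01 was the lowest and R04 the highest, and the treatments overlapped. The row 3_26586, with the miR-615-3p seed, was at 13.2 to 38.2 in P4 and at 0 to 15.7 in P4+RU486, a few reads per library, with no read in R04. Of the 4 HOX-cluster rows 0 passed the limma test, where 0.437% of all 229 rows did, so nothing about the list is read from that count. Their median log2 difference was 0.25, against 0.04 over the 229 rows tested, and the values outside miR-10a and miR-10b were 0.40 for 3_26587 (SE 0.51) and -2.11 for 3_26586 (SE 0.97), with limma adjusted p-values of 0.814 and 0.334.

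miR-99, miR-100 and miR-125 resemble miR-10 in sequence, form a superfamily with it and carry other seeds. Rows were found for 2 of the 5 listed miRNAs (miR-99a and miR-125b), as 3 rows, and none for miR-99b, miR-100 or miR-125a. miR-99a, which targets the kinase mTOR, was at 1460 to 1760 normalized CPM in P4 and 516 to 695 in P4+RU486, so the treatments did not overlap. It fell by 1.40 on the log2 scale (SE 0.25, limma adjusted p = 0.0225). miR-125b, which was at 3407 to 5979 in P4 and 1608 to 3433 in P4+RU486, differed by -0.84 (SE 0.29, limma adjusted p = 0.285). The row 15_10953, with the miR-99a seed, was at 316 to 878 and 376 to 729 and differed by -0.01 (SE 0.38, limma adjusted p = 0.990). Thus 1 of 3 superfamily rows passed, where 0.437% of all 229 rows did. That share is miR-99a itself, so it is no separate yardstick for the list. The median log2 difference of the 3 rows was -0.84, against 0.04 over the 229. The adjusted p of miR-99a in the authors' deposited table for vesicles is 0.81. The call of miR-99a was lost without P04, R01, R03 or R04, when limma called 0 rows (20 to 30 at an unadjusted p under 0.05), and without P01, P04 and R04 together, when it called 1 row, which was higher in P4+RU486. Whether miR-10a or miR-10b responded otherwise than miR-99a was not tested.

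**Figure D3:**
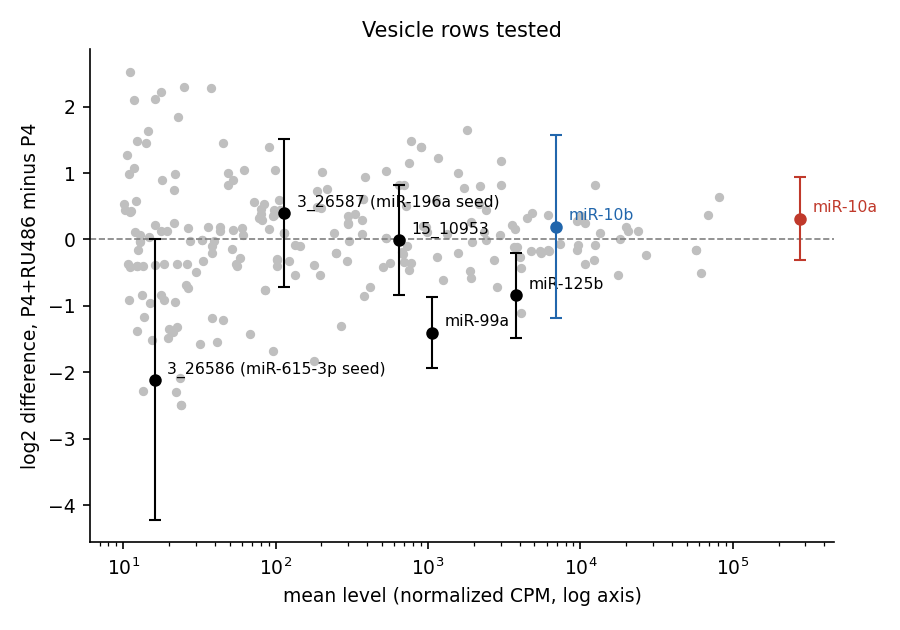
Log2 difference between treatments (P4+RU486 minus P4) against the mean level (normalized CPM, log axis) for the 229 vesicle rows tested (grey), with miR-10a, miR-10b and the 5 HOX-cluster or superfamily rows labelled and drawn with 95% intervals from limma. The intervals of miR-10a (-0.31 to 0.93) and miR-10b (-1.19 to 1.57) cross 0 and that of miR-99a lies below it.

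miR-10b was lower in libraries with more reads. Its recovered reads numbered 2071, 1146, 1762 and 1010 in P01 to P04 and 1054, 1054, 2222 and 669 in R01 to R04. The highest was 3.32 times the lowest, while the listed reads per library differed 10.9-fold and the reads of miR-10a ran from 16457 to 366410, a 22.3-fold range. The relation was noticed in these data, and 4 relations were computed. Across the 8 libraries, log2 of the miR-10b level and log2 of the listed reads had a Pearson r of -0.90 (exact permutation p = 0.00298, 0.00933 adjusted over the 4) and a Spearman rho of -0.93 (exact permutation p = 0.00223, 0.00446 adjusted). The fitted level changed by -0.79 on the log2 scale per doubling of the reads. Without P02 and P03, the libraries with the most reads, r was -0.75 over 6 libraries (exact permutation p = 0.0986). So the relation did not pass the threshold once both were left out, which also cut the number of libraries and the range of reads. With any 1 library left out, r ran from -0.94 to -0.87 (exact permutation p = 0.00258 to 0.0155). Within P4, P01 and P04 had nearly equal reads (97202 and 97593) and miR-10b levels of 16271 and 9636, above P02 and P03. Within P4+RU486, R03 was above R04, which had fewer reads. With 4 libraries each, no r was computed within a treatment.

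For miR-10a the same relation had a Pearson r of 0.60 (exact permutation p = 0.114, also 0.114 adjusted) and a Spearman rho of 0.62 (exact permutation p = 0.115, 0.153 adjusted). Without P02 and P03 its r was 0.53 (exact permutation p = 0.271). The log2 ratio of miR-10a to miR-10b was higher in libraries with more reads, with r = 0.87 (exact permutation p = 0.00466, 0.00933 adjusted) and rho = 0.98 (exact permutation p = 0.000397, 0.00159 adjusted), and r = 0.73 without P02 and P03 (exact permutation p = 0.0958). miR-10a against miR-10b gave r = -0.66 (exact permutation p = 0.0595, 0.0794 adjusted) and rho = -0.50 (exact permutation p = 0.216, also 0.216 adjusted). Without P01 and P03 that r was 0.037, so it rests on those libraries.

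**Figure D4:**
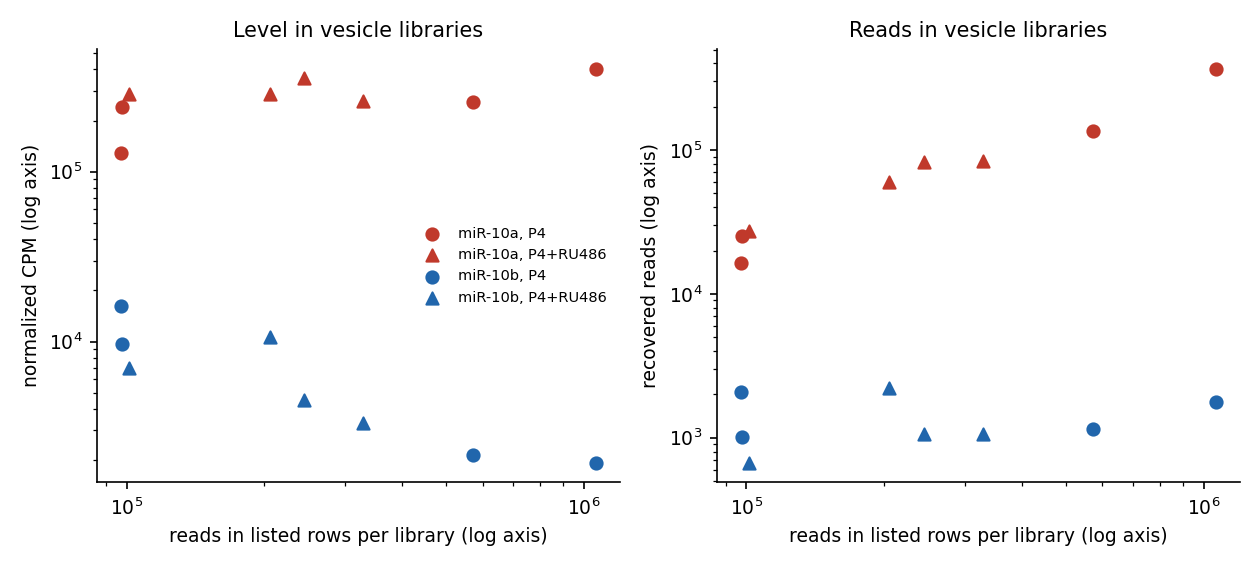
Normalized level (left) and recovered reads (right) of miR-10a (red) and miR-10b (blue) against the reads in listed rows of each vesicle library, all on log axes, with circles for P4 and triangles for P4+RU486. The miR-10b reads stay between 669 and 2222 while the libraries range from 97202 to 1062646 reads.

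Among the 229 rows, 3 (1.31%) had an r with library size as low as that of miR-10b or lower, itself included, and the median r over rows was 0.17. For miR-10a, 45 rows had an r as high or higher. Marker lists were set beside miR-10b as a description. The stromal list, found for both of its miRNAs, summed to 849, 131, 83.5 and 305 normalized CPM in P01 to P04 and to 168, 204, 593 and 136 in R01 to R04, highest in P01 and R03 as was miR-10b. Nearly all of that sum was miR-199a-3p, a miRNA of fibroblasts and stroma, and the row with the miR-214 seed had no read in 5 of 8 libraries. The erythroid list, found for 1 of 3 miRNAs as the row 26_23579, ran from 281 in P02 to 7365 in P04. The leukocyte and smooth muscle sums did not follow miR-10b in R03, where it was the 2nd highest and they were the lowest of the 8 libraries, at 1645 and 9730. Rows were matched to 2 of the 4 smooth muscle miRNAs, and miR-143 made up 9673 of that 9730. A row named miR-133, without a letter, was not counted in that list. The rows of the epithelial list ran the other way from miR-10b, to unlike degrees. The r between log2 level and log2 of the listed reads was 0.90 for miR-200c and 0.86 for miR-200b. It was 0.72 for 12_7044 (miR-200c seed), 0.48 for 3_27218 (miR-200a seed) and 0.44 for miR-200a. The multiciliated list was mixed: this r was -0.73 for 15_10275 (miR-34c-3p seed), as for miR-10b a fall with more reads. It was 0.51 for 15_10278 and 0.63 for 16_11384, both with the miR-34b seed. The row 12_6472, also with that seed, was too low to be tested. The part of these cells, of RNA input or of depth in the level of miR-10b was not tested. In such bulk RNA, fewer contributing cells and less RNA per cell cannot be told apart.

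The rows whose pattern over the 8 vesicle libraries was most like that of miR-10b, among 123 others with a mean of at least 100, were 24_21767 (no known seed, Pearson r of log2 levels 0.89), miR-199a-3p (0.88) and 26_23579 (0.84). The least like were rows with the seeds of miR-186 (1_2197, -0.96), miR-31 (2_17077, -0.93) and miR-30d (1_144, -0.93). For miR-10a the most like were JH923873.1_37347 and JH923873.1_37351, with the miR-183 seed and identical values (0.95), and let-7g (0.94). The least like were miR-150, a lymphocyte miRNA (-0.89), and the rows 26_23352 (-0.79) and 3_26948 (-0.76), which have no known seed. P01 was at an end of several of these patterns: miR-150 was at 13655 there and at 1462 to 4318 in the other 7 libraries, and let-7g at 2695 against 4827 to 9414. These correlations were picked as the extremes of 8 libraries that share their scaling and are given as a description.

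For the endometrium, the authors' deposited table lists miR-10b among the rows that differ between the treatments. Its signed fold in the authors' deposited table is -1.13 (adjusted p = 0.00114, the 2nd smallest of 761 rows), and for miR-10a it is 1.15 (adjusted p = 0.751). The sign is as coded in the authors' deposited table, whose numerator is not named, so which treatment was higher is not stated here. An adjusted p under 0.05 was given to 1.18% of the rows (9 rows) in the authors' deposited table, and miR-10b had the smallest fold of them. The other 8 had folds of 1.62 to 8.10 in size in the authors' deposited table. Of the 260 rows of the authors' deposited table whose fold was no larger in size than that of miR-10b, it was the only one under 0.05, and the next smallest adjusted p among them was 0.449.

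None of the other HOX-cluster or superfamily rows was under 0.05 in the authors' deposited table for the endometrium. The lowest adjusted p among them in the authors' deposited table was 0.135, for 3_26586 with a fold of 2.19, and for 3_26587 the fold was -1.35 and the adjusted p 0.689. For vesicles, the sign in the authors' deposited table can be read from the levels: miR-99a has a fold of 2.64 there (adjusted p = 0.81), and its mean in P4 was 2.64 times that in P4+RU486. A positive fold was therefore read as higher in P4. The means had the sign of that reading in 315 of the 366 rows compared, and in 154 of the 166 with a fold of at least 1.5 in size. In the remaining rows they did not. The vesicle folds in the authors' deposited table are -1.20 for miR-10a and -1.06 for miR-10b (adjusted p = 0.99 for miR-10b, and above that for miR-10a), both coded as higher in P4+RU486, and 1.82% of its 495 rows were under 0.05. The mean level of miR-10b was higher in P4, by 1.18 times, so its sign differs between that table and the means, and that of miR-10a does not. Whether the treatment difference of miR-10b differs between endometrium and vesicles was not tested.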

How the data were processed

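Small RNA (Illumina TruSeq, per the labels' protocols) was sequenced. The submitters' processing notes name cutadapt 1.11, the build Oar_v3.1 and edgeR. The aligner, the locus prediction and the filters on reads are not known here. In the deposited vesicle table the unit is a normalized signal, with reads scaled to CPM of a TMM-adjusted library size: all values of the 8 columns were whole multiples of 1 step (100%, tolerance 0.1 read), and TMM factors of the recovered reads differed from the deposited scaling by at most 3.92e-06. The authors' deposited folds carry a sign (a fold under 1 is minus its inverse), and their adjusted p-values are given per the file headers.

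One vesicle read was worth 1.10 to 10.4 normalized CPM. Reads carry no molecular identifiers, and intervals (95%, Wilson) cover counting error only. Shares are percent of the recovered reads in listed rows. Columns were tied to treatments by their initial. The 10 endometrium columns of single libraries match no label and were not used, so the endometrium tests and the test between sources were not run.

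The vesicle test was limma 3.58.1 (trend, R 4.3.3) on the log2 of value + 1 for the 229 rows whose mean reached 10, with Benjamini-Hochberg adjustment over all of them and a threshold of 0.05. On simulated data it recovered 76.8% of 4-fold changes, and 0% of its calls were false. The simulated spread between libraries was smaller than that of miR-10b, so this rate does not carry over to miR-10b. Shares and ratios were compared by 2-sided exact permutation tests (scipy 1.17.1). Whole reads also went to edgeR 4.0.16 and DESeq2 1.42.0 as alternatives. The members, lists and tests were chosen with earlier results of these data known. Named rows are the members, the HOX-cluster and superfamily lists (matched by name or seed), the 10 highest vesicle rows, the cell markers, and the 3 rows most and least like each member by Pearson r. The rows beside miR-10b in level or spread, and the relation with library size, were chosen after seeing values. A seed match is not an identity. No miRNA sequence was used here.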

Additional observations from a re-analysis of the deposited data

Results flagged for a closer look

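In 2 of 20 groups of 4 vesicle libraries, 1 library lay far from the other 3, where chance gives about 1 in 20. miR-99a in P4 was at 1760 in P01 and at 1460 to 1486 in the other libraries, a gap of 0.913 of the range. The row 15_10953 in P4+RU486 was at 376 in R04 and at 695 to 729 in the others, a gap of 0.904 of the range. Neither miR-10a nor miR-10b had such a library.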

How the results depend on the processing

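The miR-10a level kept its direction and stayed short of the threshold in 17 of 18 alternatives, and was -0.10 without P01, P04 and R04. The miR-10b level had no stable sign: edgeR gave -0.23, DESeq2 -0.34 and the fit with depth as a covariate -0.17, and none passed. With 1 library left out, the log2 differences ran from 0.02 to 0.57 for miR-10a and from -0.27 to 0.76 for miR-10b, the share differences from 0.79 to 6.64 percentage points and from -0.50 to 0.16, and the log2 ratio difference from -0.74 to 0.83. Without P01, P04 and R04, P4 was left with P02 and P03, the libraries with the most reads. The miR-10b share then differed by 0.43 percentage points and the log2 ratio by -1.51. The exact permutation p was 0.2 for both, the lowest it can be with so few libraries. This test therefore could not pass the threshold, and nothing is concluded from its p. The cause of these differences was not tested. DESeq2 called 4 rows and the fit with depth as a covariate 6, and 0 to 2 were called with 1 library left out. Without the 2 libraries farthest on the axis, r with library size was -0.75 for miR-10b and 0.73 for the ratio, and r between the members was 0.037. With 3 libraries against 4, the exact test cannot give a p below 0.0571. No paired analysis was possible because the vesicle columns carry no ewe and the treatments were given to different ewes. Summing rows of the same seed was not run, since no further row has that seed, and neither were the endometrium alternatives, whose columns match no label. Precision is limited by the 4 libraries per treatment and, for rows of a few reads such as 3_26586, by vesicle depth.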
